A study of Mus musculus with 12 samples.

Results

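The levels of 5 miRNAs that mark mesenchymal cells were followed across mouse embryonic stem cells and spermatids. They are mmu-miR-143-3p, mmu-miR-145a-5p, mmu-miR-199a-3p, mmu-miR-199a-5p and mmu-miR-214-3p, written below without the species prefix. The miRNAs were chosen by name, as miRNAs of fibroblasts and of tissue stroma, and make up 5 of the 1549 features in the deposited count table. All 5 had counts in every library and passed the filter on low counts. Small RNA had been sequenced from 5 kinds of wild-type mouse cells, all collected by cell sorting. Androgenetic haploid embryonic stem cells (ESC), which carry only a paternal genome, came from 3 lines: A129-2 with 2 libraries, A129-6 with 3, and A129-17 with 2. The diploid comparison was R1, an established mouse ESC line, with 2 libraries. Round spermatids (RS), the haploid cells that follow meiosis, gave 3 libraries and were sorted by Hoechst fluorescence from trypsinised seminiferous tubules of 129Sv testes. The medium of the haploid ESC held LIF with the MEK inhibitor PD0325901 and the GSK3 inhibitor CHIR99021, per the labels' protocols. The sources used here do not say whether the ESC were grown on feeder cells, nor whether replicates came from separate cultures or animals, so that SDs and p-values reflect only how much these samples varied, in part perhaps for technical reasons. R1 is 1 diploid line, and a difference from it cannot be told apart from a difference between lines.

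The 5 miRNAs come from pairs of neighbouring genes. miR-143 and miR-145 are cut from a shared transcript that is abundant in smooth muscle and fibroblasts, where both favour the contractile state. In human ESC, miR-145 is known to repress the pluripotency factors OCT4, SOX2 and KLF4. miR-199a and miR-214 are cut from the long noncoding RNA Dnm3os, which is expressed in embryonic mesenchyme under control of the factor Twist1, and miR-214 is known to target the Polycomb gene Ezh2. Cells of an epithelial or germ line kind usually hold little of these miRNAs, so they are used to look for stromal RNA in a sample.

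Sequences were found for 3 of the 5 miRNAs in RefSeq (GRCm38.p6), and they are shown because they decide which gene a read can be assigned to. Capitals mark the seed, bases 2 to 8 from the 5′ end, which pairs with targets. The 3 miRNAs have 3 different seeds.
miR-199a-5p: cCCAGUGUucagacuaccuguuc
miR-199a-3p: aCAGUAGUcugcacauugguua
miR-199b-3p: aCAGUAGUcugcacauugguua
miR-214-3p: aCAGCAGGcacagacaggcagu
The mature miR-199a-3p and miR-199b-3p are identical, so the counts named miR-199a-3p could come from Mir199a-1, Mir199a-2 or Mir199b. The mature miR-199a-5p is also the same from Mir199a-1 (chr9:21496495-21496564, minus strand) and Mir199a-2. Mir199a-1 and Mir199b (chr2:32318460-32318569, plus strand) lie opposite to introns of Dnm2 and Dnm1. Mir214 shares the transcript Dnm3os with Mir199a-2.

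The hairpins of Mir199a-2 and Mir214 are shown because they place the neighbouring genes and both arms that are counted below. The capitals are the mature arms.
Mir199a-2: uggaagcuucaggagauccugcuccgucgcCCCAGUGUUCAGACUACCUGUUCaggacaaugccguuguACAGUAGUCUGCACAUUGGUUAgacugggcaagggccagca
Mir214: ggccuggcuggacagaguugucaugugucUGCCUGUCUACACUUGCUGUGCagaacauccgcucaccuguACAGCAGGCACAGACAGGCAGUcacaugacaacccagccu
Mir199a-2 lies at chr1:162217814-162217923 and Mir214 at chr1:162223368-162223477, both on the plus strand of GRCm38. They are 5445 bases apart, overlap exons of Dnm3os, and run antisense to an intron of Dnm3.

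Libraries of ESC held 3709786 to 9176080 counted reads and those of RS 155232 to 243714, so low values were least precise in RS. Levels are given as CPM, counts scaled to the total counted reads of the library. Differences come from edgeR's quasi-likelihood test after TMM scaling, which also corrects for composition, as log2 with the standard error (SE) and a p adjusted over all features tested. A difference is called at an adjusted p under 0.05. TMM factors were 0.70 to 1.38 among ESC and, in the fit of all 12 libraries, 1.89 to 2.63 in RS against 0.47 to 1.03 in the haploid lines. Therefore a difference in CPM and a fitted difference against RS are not the same quantity. The ESC list of marker miRNAs took 60663 to 98308 CPM in ESC and 53.3 to 1327 in RS, and the germ cell list 262488 to 353304 CPM in RS.

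miR-143-3p was the bulk of the mesenchymal counts in every library. A129-2 had 24966 and 6100 CPM, A129-6 had 10025, 11414 and 5506, and A129-17 had 6933 and 11875. R1 had 13139 and 15043 CPM. The RS libraries had 64215, 13535 and 36084 CPM, so the highest and the lowest RS library differed by a factor of 4.74. The haploid libraries overlapped with R1, and the second RS library lay within the range of ESC. Of the summed counts of the 5 miRNAs, miR-143-3p held 90.9 to 95.9% in the haploid libraries, 98.1 and 98.3% in R1, and 96.6 to 96.9% in RS.

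miR-145a-5p, its neighbour, was far lower. Its values were 28.8 and 40.3 CPM for A129-2, 48.0, 32.1 and 12.8 CPM for A129-6, and 17.3 and 20.0 CPM for A129-17. R1 had 81.8 and 74.4 CPM, above every haploid library. RS had 455, 51.5 and 294.0 CPM, from 111, 8 and 49 counts. The second RS library has an exact Clopper-Pearson 95% interval of 22.2 to 102 CPM. Such intervals cover counting error only. RS lay above all haploid libraries and overlapped with R1.

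Both arms of miR-199a were lowest in the A129-17 and R1 libraries and in the third A129-6 library. miR-199a-3p, known to target Met and Mtor, had 365 and 97.1 CPM for A129-2, 161, 166 and 66.1 for A129-6, 62.1 and 79.1 for A129-17, and 57.0 and 64.3 for R1. In RS it had 919, 225 and 576 CPM. The haploid libraries and R1 overlapped, and RS lay above R1. The other arm, miR-199a-5p, had 248 and 154 CPM for A129-2, 178, 182 and 54.0 for A129-6, 58.8 and 75.5 for A129-17, and 99.7 and 101 for R1. RS libraries had 615, 187 and 354 CPM of it, above R1 and overlapping with A129-2.

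miR-214-3p had another order of groups. The A129-2 libraries held 1159 and 292.8 CPM, those of A129-6 held 617, 475 and 219, and those of A129-17 held 204 and 338. R1 had only 14.5 and 13.3 CPM. RS had 57.4, 12.9 and 54.0 CPM, from 14, 2 and 9 counts. The lowest haploid library was above the highest RS library, and the RS range took in R1. By group means, the order was A129-2 (726 ± 613 CPM, SD, n = 2), A129-6 (437 ± 202, n = 3), A129-17 (271 ± 94.8, n = 2), RS (41.4 ± 24.8, n = 3) and R1 (13.9 ± 0.883, n = 2). The first 3 were not separated beyond their spread, nor were RS and R1. For the other 4 miRNAs RS had the highest mean, at 37944 ± 25391 CPM of miR-143-3p, 267 ± 203 of miR-145a-5p, 573 ± 347 of miR-199a-3p and 385 ± 216 of miR-199a-5p (SD, n = 3).

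**Figure D1:**
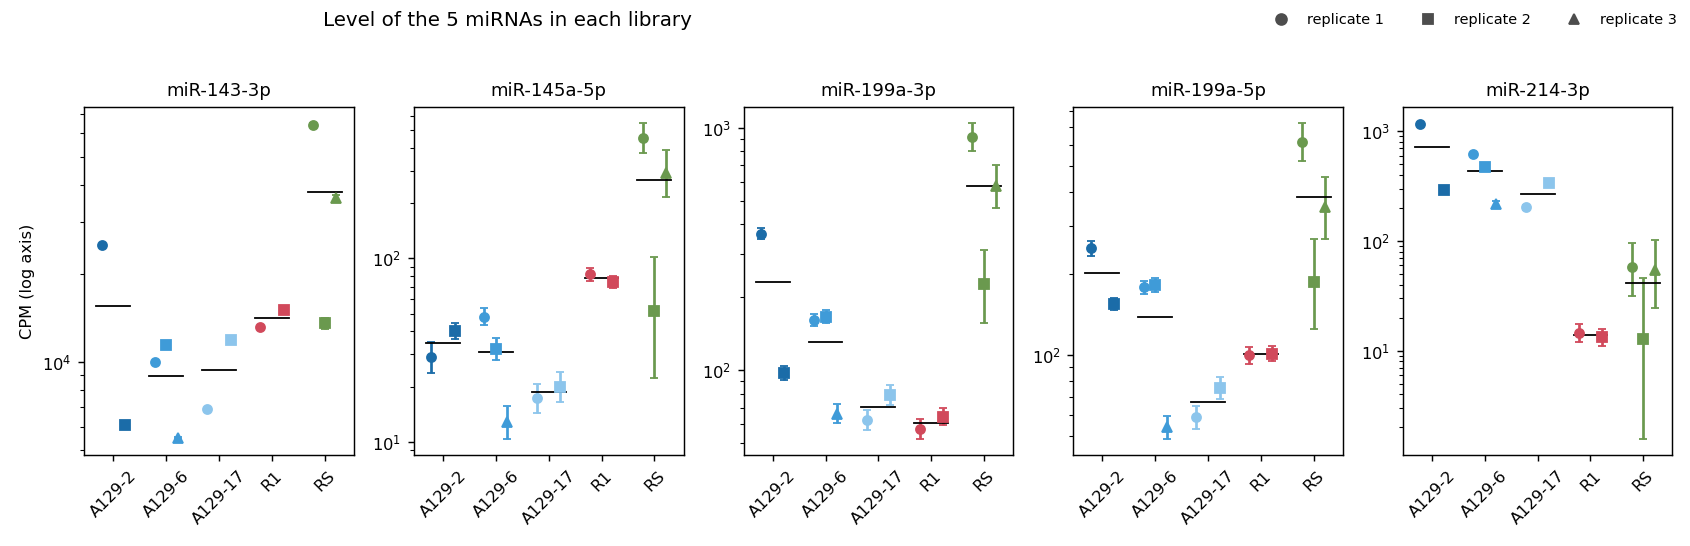
Level of each of the 5 miRNAs in CPM on a log axis, by group. Points are libraries with exact 95% intervals of counting error, symbols give the replicate, and black lines are group means. miR-214-3p lies between 12.9 and 57.4 CPM in R1 and RS and between 204 and 1159 in the haploid lines, and the first RS library is the highest RS library in all 5 panels.

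The haploid lines were first compared with R1. The 5 miRNAs did not move in 1 direction. miR-214-3p was higher in the haploid lines by 5.04 (SE 0.47, adjusted p = 1.69e-07, a 32.9-fold difference), and miR-199a-3p was higher by 1.15 (SE 0.35, adjusted p = 0.00880). miR-145a-5p was lower, at -1.40 (SE 0.33, adjusted p = 0.00173). For miR-143-3p the log2 difference was -0.30 (SE 0.31, adjusted p = 0.389) and for miR-199a-5p 0.38 (SE 0.30, adjusted p = 0.261), neither of which was called. Thus 2 of 5 were called higher and 1 lower, where 35.3% of the 757 features tested were called higher and 35.3% lower (70.5% in all, median log2 0.329). Over libraries, the haploid and R1 CPM did not overlap for miR-214-3p (higher) and miR-145a-5p (lower), against 31.6% and 34.5% of all features in these directions.

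Of these calls, the one for miR-214-3p held in all 20 alternative analyses, with log2 differences of 3.83 to 5.87. The call for miR-199a-3p ended with total-count scaling (1.09, adjusted p = 0.0579), with counts summed per line (1.00, adjusted p = 0.169) and without R1 replicate 1 (1.08, adjusted p = 0.0787) or 2 (1.19, adjusted p = 0.0596); its adjusted p ran from 6.78e-05 to 0.169, and a correction for GC content gave 2.62. The call for miR-145a-5p ended when RS libraries joined the fit (-0.53, adjusted p = 0.357; range of adjusted p 1.28e-05 to 0.357). Without A129-2 replicate 1, miR-143-3p was called lower (-0.63, adjusted p = 0.0168; range 0.0168 to 0.953). miR-199a-5p was called higher with upper-quartile scaling (0.69), with only features of a mean CPM of at least 10 (0.76) and with all 12 libraries (1.23), its adjusted p running from 0.0198 to 0.699 over the alternatives.

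Each haploid line was then set against R1, with the R1 libraries shared by the 3 comparisons. miR-214-3p was called higher in every line, by 5.47 in A129-2 (adjusted p = 5.01e-07), 5.03 in A129-6 (adjusted p = 3.87e-07) and 4.62 in A129-17 (adjusted p = 1.05e-06). miR-145a-5p was called lower in every line, at -1.20, -1.29 and -1.70 (adjusted p = 0.0334, 0.0106 and 0.00482). miR-199a-3p was called higher in A129-2 (1.70, adjusted p = 0.00257) and A129-6 (1.17, adjusted p = 0.0145), while A129-17 had 0.58 (adjusted p = 0.211). miR-199a-5p was called in A129-2 alone (0.87, adjusted p = 0.0478), with 0.48 and -0.22 in A129-6 and A129-17 (adjusted p = 0.210 and 0.597). The values of miR-143-3p were -0.09, -0.56 and -0.24, none of them called in this fit. So 3, 2 and 1 of the 5 were called higher in A129-2, A129-6 and A129-17, and 1 lower in each. Of all features, 31%, 35% and 34.6% were called higher and 28.8%, 32.1% and 31.6% lower (59.8%, 67.1% and 66.2% in all). Without A129-2 replicate 1, the miR-199a-3p call in that line ended (0.85, adjusted p = 0.0835, the highest over its alternatives). The A129-6 call of miR-199a-3p ended in 4 of 19 alternatives (RLE and total-count scaling, and without R1 replicate 1 or 2), with an adjusted p of up to 0.0911. In A129-17 miR-199a-3p was called higher in 3 of 19 alternatives. These were upper-quartile scaling (0.97), all 12 libraries in the fit (1.46) and the GC correction (2.48). The call of miR-145a-5p ended in 8 of 18 alternatives for A129-2 (adjusted p of up to 0.681), in 3 of 18 for A129-6 (up to 0.528) and in 1 of 18 for A129-17 (up to 0.290). All 3 ended with all 12 libraries in the fit. It ended without A129-2 replicate 1 (-0.79), A129-6 replicate 2 (-1.16) or either R1 library (-1.10 and -1.31) for A129-2, and without R1 replicate 1 (-1.19) for A129-6. That of miR-199a-5p in A129-2 ended in 11 of 19 alternatives.

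Between the 3 haploid lines, none of the 5 miRNAs was called in edgeR's F-test over the lines, where 29 of 757 features (3.83%) were. The adjusted p was 0.615 for miR-143-3p, 0.704 for miR-145a-5p, 0.215 for miR-199a-3p, 0.166 for miR-199a-5p and 0.376 for miR-214-3p. Both arms of miR-199a had an unadjusted p under 0.05 (0.0468 and 0.0285), the only 2 of the 5, and none was called with DESeq2. Without A129-6 replicate 3, miR-199a-5p passed (adjusted p = 0.0432; range 0.0432 to 0.622), as 1 of 80 features. The spread within a line was large: the first A129-2 library exceeded the second by 4.09-fold for miR-143-3p, 3.76-fold for miR-199a-3p and 3.96-fold for miR-214-3p in CPM. miR-199a-5p had 1.61-fold and miR-145a-5p 0.715-fold in the same pair, beside a median of 1.40-fold over features, where 71.5% of features were higher and 13% at least 3-fold higher in the first library.

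Spermatids were compared with the haploid lines and with R1. The fit put most features lower in RS, with a median log2 of -2.79 against the haploid lines and -2.04 against R1, so a value near 0 lies above that median. Only 372 of the 806 features tested had counts in all 3 RS libraries. Against the haploid lines, the median was -1.28 with only features of a mean CPM of at least 10, and -1.33 with DESeq2. Against the haploid lines, miR-145a-5p was called higher in RS (1.68, SE 0.45, adjusted p = 0.00206) and miR-214-3p lower (-4.95, SE 0.50, adjusted p = 8.63e-09). miR-143-3p had 0.25 (SE 0.46, adjusted p = 0.634), miR-199a-3p 0.60 (SE 0.38, adjusted p = 0.165) and miR-199a-5p 0.06 (SE 0.37, adjusted p = 0.913). So 1 of 5 was called higher and 1 lower, where 20.8% of 806 features were called higher and 44.5% lower (65.4% in all). In CPM the RS mean was 3.36-fold the mean of the haploid lines for miR-143-3p, 9.51-fold for miR-145a-5p, 3.98-fold for miR-199a-3p and 2.85-fold for miR-199a-5p. miR-214-3p was 11.5-fold higher in the haploid lines. The CPM of RS and of the haploid libraries did not overlap for miR-145a-5p (higher) and miR-214-3p (lower), against 24.4% and 37.5% of features.

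The call for miR-214-3p held in all 22 alternatives (-5.40 to -2.57), and miR-145a-5p had 0.93 to 3.31 over its own. The other 3 depended on the scaling, and both arms of miR-199a on further choices. miR-199a-5p was called higher in RS with the GC correction (1.30, adjusted p = 0.00338), where miR-199a-3p had -0.66. miR-199a-3p was called higher with DESeq2 (0.94), with a mean CPM of at least 10 (0.92) and without RS replicate 2 (0.79). With scaling by total counts, miR-143-3p (1.79), miR-199a-3p (2.16) and miR-199a-5p (1.66) were also called higher in RS, so that 4 of 5 were higher, and 53.9% of all calls were then higher in RS, instead of 31.9%. Upper-quartile scaling gave the same 4 calls (51.4% of all calls higher). These shares are of called features only, not of all features tested, and so are no background for 4 of 5. Without RS replicate 1 no miRNA of the 5 was called higher, and miR-145a-5p had 0.93 (adjusted p = 0.168; range 3.71e-07 to 0.168).

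Against R1, both arms of miR-199a were called higher in RS, miR-199a-3p by 2.59 (SE 0.56, adjusted p = 0.000375) and miR-199a-5p by 1.28 (SE 0.49, adjusted p = 0.0325). The differences of miR-143-3p (0.78, SE 0.63, adjusted p = 0.312), miR-145a-5p (1.15, SE 0.61, adjusted p = 0.125) and miR-214-3p (0.92, SE 0.56, adjusted p = 0.182) were not called. So 2 of 5 were called higher and 0 lower by edgeR, where 19.4% of features were called higher and 33.6% lower (53% in all). The CPM of RS lay above that of R1 without overlap for the same 2 miRNAs, against 24.1% of features, and none of the 5 lay below, against 50.2%. The miR-199a-3p call ended without R1 replicate 1 (1.56, adjusted p = 0.0725; range 1.64e-05 to 0.0725), and that of miR-199a-5p ended in 13 of 21 alternatives. With total-count scaling miR-145a-5p was called too (1.79, adjusted p = 0.0273; range 0.00462 to 1). With upper-quartile scaling all 5 were called higher, and 50.4% of all calls were higher, instead of 36.5%. These shares, too, are of called features only, not of all features tested.

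**Figure D2:**
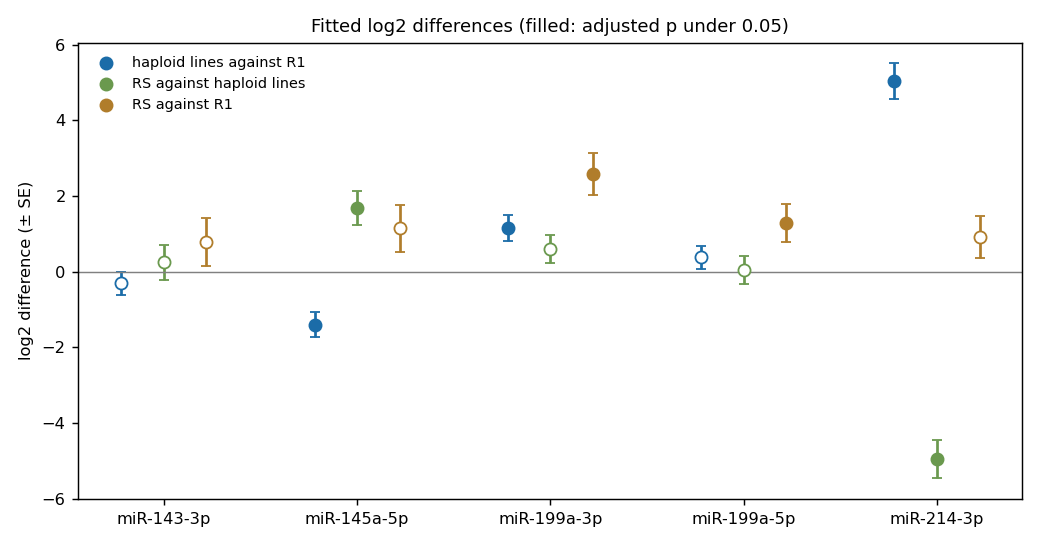
Fitted log2 difference of each miRNA in 3 comparisons, with bars of 1 SE; filled points have an adjusted p under 0.05. miR-214-3p stands at 5.04 in the haploid lines against R1 and at -4.95 in RS against the haploid lines, while miR-143-3p is called in no comparison.

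Within spermatids, all 5 miRNAs were highest in replicate 1 and lowest in replicate 2. That order was found in 13.1% of the 397 features with a mean of at least 10 CPM in RS, and in 7.69% of all 806. Of the 4 other arms and copies of these genes that were counted, 1 had it, from at most 17 counts in an RS library. Replicate 1 exceeded replicate 2 by 4.74-fold for miR-143-3p, 8.84-fold for miR-145a-5p, 4.08-fold for miR-199a-3p, 3.29-fold for miR-199a-5p and 4.46-fold for miR-214-3p. The last rests on 14 and 2 counts. The median feature had 0.693-fold, and 9.83% of features were at least 3-fold higher in replicate 1. Replicate 3 exceeded replicate 2 by 2.67-fold for miR-143-3p and 5.70-fold for miR-145a-5p, with the other three between 1.89 and 4.19-fold.

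Markers of other cells differed between the same RS libraries. The list for blood and endothelium summed to 9.46-fold in replicate 1 over replicate 2 and 5.11-fold in replicate 3 over replicate 2, over a range of 1578 to 14927 CPM, and 5 of its 9 miRNAs had the order of the 5 mesenchymal miRNAs. miR-126a-3p, an endothelial miRNA, stood at 12210, 792 and 6401 CPM. The striated muscle list (miR-1a, miR-133a and miR-206) was 4.78-fold and 4.95-fold, over 528 to 2616 CPM, with 1 of 3 in that order. Of 15 other miRNAs that are abundant in fibroblasts, 6 had the order, and their sum was 2.00-fold and 1.49-fold. That sum was 64.2 to 84.6% miR-21a-5p, and the other 14 summed to 23162, 26844 and 24680 CPM, which is 0.863-fold and 0.919-fold. Leaving this miRNA out was chosen after the data had been seen. The male germ cell list, at 0.765-fold and 1.03-fold, had none of 6 in that order. Its miRNAs were not steady: miR-34c-5p was 0.337-fold and 1.24-fold, miR-449a-5p 0.341-fold and 1.38-fold, and miR-881-3p 1.92-fold and 0.547-fold. The ESC list ran opposite to the 5 mesenchymal miRNAs, at 0.0402-fold and 0.0723-fold, with 53.3, 1327 and 96.0 CPM from 13, 206 and 16 counts. RS replicate 2, lowest in the 5 miRNAs, was thus highest in ESC miRNAs. Neither arm of miR-202, listed here as testis somatic, had the order of the 5. Both together summed to 0 to 0.412 CPM in ESC and to 90.0 to 142 in RS, from 26, 22 and 15 counts. miR-223-3p of myeloid and miR-144-3p of red cells were at 0 in RS replicate 2. In replicates 1 and 3 miR-144-3p had only 4.10 and 6.00 CPM, and miR-223-3p had 65.7 and 6.00. The zeros do not stand for the whole blood and endothelium list, as 7 of its 9 miRNAs had counts in replicate 2. Among these were miR-451a at 431.6 CPM and miR-486a-5p at 122.4. The part of these other cells, or of any batch, in the spread of the 5 miRNAs was not tested. In bulk samples, fewer cells of a type and less RNA per cell cannot be told apart.

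**Figure D3:**
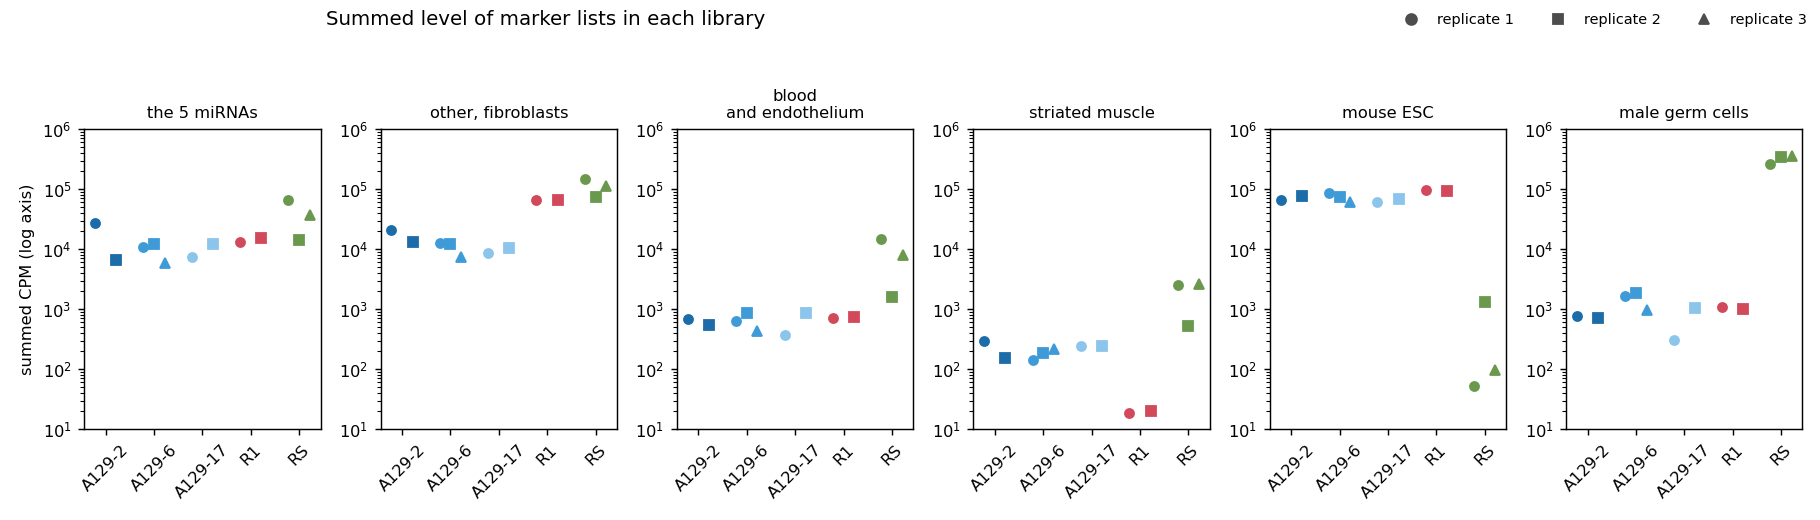
Summed CPM, on a log axis, of the 5 miRNAs and of 5 marker lists in each library; symbols give the replicate. In RS the first library is above the second for the 5 miRNAs (4.73-fold) and for blood and endothelium (9.46-fold), while the germ cell sums lie at 0.765-fold.

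Whether the 5 miRNAs moved together was read from the ratio of counts of 2 miRNAs within each library, for the 10 pairs. This ratio does not depend on library size or scaling, although it is not a ratio of molecules, since ligation of adapters differs between sequences. In RS, miR-143-3p over miR-199a-3p was 60.0 to 69.9, while both miRNAs differed by 4.74-fold and 4.08-fold in level between replicates 1 and 2. miR-199a-3p over miR-199a-5p ran from 1.21 to 1.63 and miR-143-3p over miR-199a-5p from 72.4 to 104. Ratios to miR-145a-5p and miR-214-3p, which had as few as 8 and 2 counts in RS, were wider: miR-143-3p had 141, 263 and 123 times the counts of miR-145a-5p.

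Across groups the ratios to miR-214-3p separated the haploid libraries from R1 and RS. miR-199a-3p over miR-214-3p was 0.234 to 0.350 in the 7 haploid libraries, 3.92 and 4.84 in R1, and 16.0, 17.5 and 10.7 in RS. It was the only one of the 10 pairs whose RS and ESC libraries did not overlap (log2 difference 4.60, exact two-sided permutation p = 0.00909, the smallest that 3 against 9 libraries can give, adjusted p = 0.111). The RS values rest on 14, 2 and 9 counts of miR-214-3p, with exact 95% intervals of 9.34 to 29.7, 4.50 to 150 and 5.39 to 24.0. Those of R1 were 3.17 to 4.87 and 3.97 to 5.93, so RS replicates 2 and 3 were not separated from R1 replicate 2 beyond counting error. miR-199a-5p over miR-214-3p was 0.214 to 0.528 in the haploid libraries, 6.86 and 7.61 in R1, and 10.7, 14.5 and 6.56 in RS (log2 difference of RS from ESC 3.93, exact permutation p = 0.0273, adjusted p = 0.111). miR-143-3p over miR-214-3p was 16.2 to 35.2 in the haploid libraries, 903 and 1130 in R1 and 668 to 1120 in RS. Thus R1 and RS overlapped in this ratio, far from the haploid lines.

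Between haploid and R1 libraries, 7 of 10 pairs did not overlap, each with an exact permutation p of 0.0556, the smallest that 7 against 2 libraries can give. They include all 4 pairs with miR-214-3p (log2 differences of -3.87 to -6.41), and also miR-143-3p over miR-199a-3p, which was 62.2 to 150 in the haploid libraries and 231 and 234 in R1 (-1.50). miR-143-3p over miR-145a-5p, from 1 transcript, was 151 to 866 in the haploid libraries and 161 and 202 in R1, with overlap. Of the 20 tests of ratios, adjusted together, none passed (smallest adjusted p 0.111), and 3 of the 10 between RS and ESC had an unadjusted exact permutation p under 0.05. Haploid libraries of a line are not independent.

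Among the 7 haploid libraries, by contrast, miR-199a-3p and miR-214-3p kept a close proportion. The highest ratio of miR-199a-3p to miR-214-3p was 1.49 times the lowest, while their own levels spanned 5.88-fold and 5.69-fold. That was the smallest span to miR-214-3p among 450 features, whose median was 4.42. miR-143-3p had a span of 2.17, smaller or equal in 3.33% of features. It was 2.47 for miR-199a-5p (8%), and 5.53 for miR-145a-5p (67.3%).

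**Figure D4:**
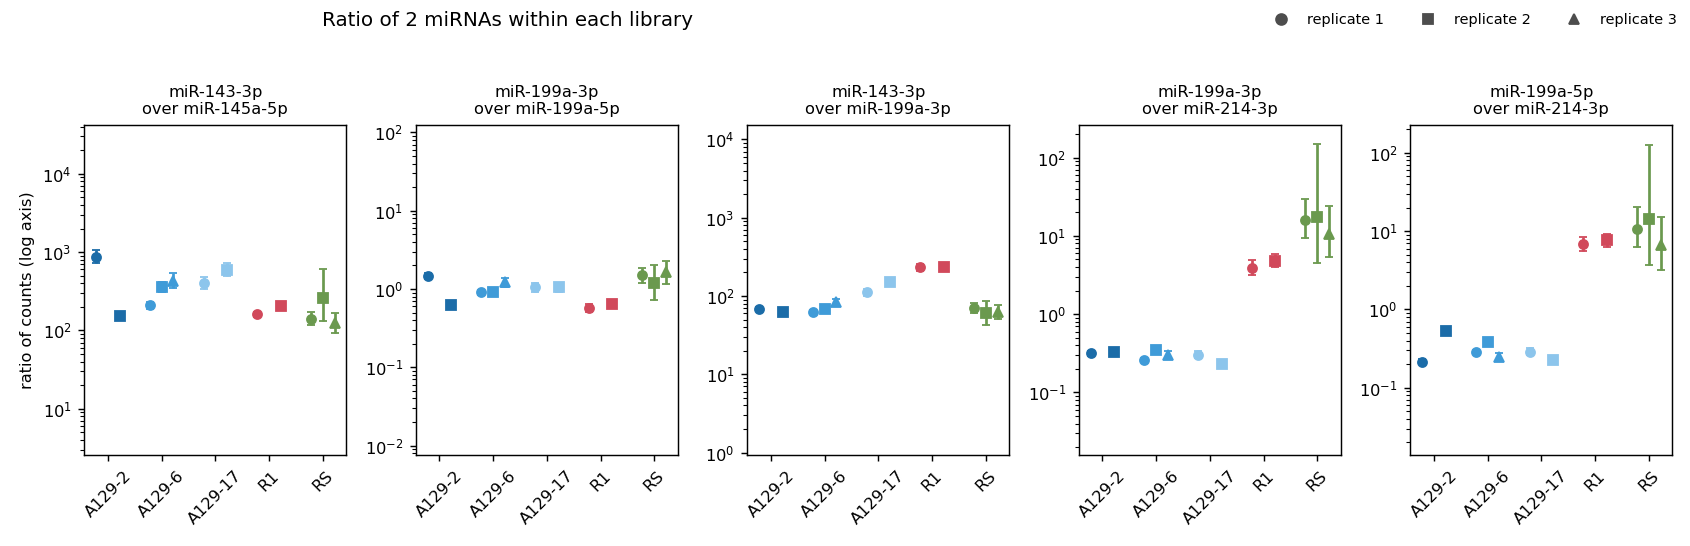
Ratio of counts of 2 miRNAs within each library, on log axes of equal width, with 95% intervals of counting error. miR-199a-3p over miR-214-3p lies at 0.234 to 0.350 in the haploid libraries, 3.92 and 4.84 in R1 and 10.7 to 17.5 in RS. The RS values rest on 14, 2 and 9 counts of miR-214-3p, and the intervals of RS replicates 2 and 3 overlap with that of R1 replicate 2. miR-143-3p over miR-145a-5p overlaps between groups.

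The sum of the 5 miRNAs was 2.68 and 0.668% of counts for A129-2, 1.10, 1.23 and 0.586% for A129-6, 0.728 and 1.24% for A129-17, 1.34 and 1.53% for R1, and 6.63, 1.40 and 3.74% for RS. R1 lay within the haploid range, and RS replicate 2 within that of ESC. Since miR-143-3p is at least 90.9% of this sum, the sum does not show the differences of miR-214-3p, which was 2.73 to 5.60% of it in the haploid libraries, 0.109 and 0.0869% in R1 and 0.0867 to 0.145% in RS.

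Of the 8 other arms and copies of these genes, 4 were in the table; miR-145b, miR-199b-3p and the arms of miR-3120, which lies opposite to Mir214, were not analysed here. Of those 4, 2 were called higher in the haploid lines than in R1, 1 lower and 1 not called, beside 35.3% higher and 35.3% lower of all features. miR-214-5p, the passenger arm of Mir214, was higher by 3.01 (SE 0.60, adjusted p = 0.000414), and made 1.81 to 4.10% of the counts of both arms in the haploid libraries, against 9.76 and 8.27% in R1. miR-145a-3p was lower (-1.77, SE 0.52, adjusted p = 0.00669). These 2 had the direction of the main arm. miR-143-5p was higher (1.57, SE 0.54, adjusted p = 0.0181), while miR-143-3p was not called, and made 0.0349 to 0.158% of both arms in the haploid libraries and 0.0229 and 0.0261% in R1. miR-199b-5p had -0.90 (SE 0.56, adjusted p = 0.160). In RS against the haploid lines, where 20.8% of features were called higher and 44.5% lower, miR-145a-3p was called higher (2.52, adjusted p = 0.000791) and miR-214-5p lower (-1.65, adjusted p = 0.0286, from 3, 2 and 1 counts in RS).

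Other miRNAs that are abundant in fibroblasts were counted by the same list in each comparison. Against R1, 5 of 15 were called higher in the haploid lines and 7 lower, beside 35.3% in each direction over all features, with a median log2 of -0.261, beside 0.329. miR-125b-5p, high in mesenchymal and neural cells, was higher (3.57, SE 0.36, adjusted p = 4.59e-07), with 446 to 1668 CPM in the haploid libraries and 63.6 and 64.6 in R1. miR-10b-5p, which lies in a Hox cluster, was lower (-3.36, SE 0.29, adjusted p = 7.09e-08). The summed list was 7488 to 20492 CPM in the haploid libraries, 64821 and 65415 in R1 and 74972 to 150012 in RS. miR-21a-5p alone made 33.8 to 52.6% of this sum in the haploid libraries and 83.8 and 82.7% in R1. Without it the other 14 summed to 3767 to 13570 CPM in the haploid libraries, and R1, with 10581 and 11210, lay inside that range. All 15 had counts in every library. In RS against the haploid lines, 7 of 15 were called higher and 4 lower, beside 20.8% and 44.5% of all features, led by miR-10b-5p (3.13, SE 0.39, adjusted p = 2.46e-07) and miR-29a-3p, a repressor of collagen genes (2.49, SE 0.28, adjusted p = 3.25e-08). Of the blood and endothelium list, 3 of 7 tested were called higher in the haploid lines than in R1 and 4 lower (median log2 -2.13). Its sum was 369 to 873 CPM in the haploid libraries, of which miR-150-5p, a lymphocyte miRNA, made 72.9 to 87.5%, and 712 and 751 CPM in R1. miR-126a-3p had 33.8 to 75.2 CPM in the haploid libraries and 242 and 262 in R1. The part of fibroblasts in the levels of the 5 miRNAs was not tested.

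By the pattern over the 9 ESC libraries, the miRNAs most like miR-214-3p among 449 features were miR-125b-5p (Pearson r = 0.991 of log2 normalised CPM) and miR-181a-5p (0.988). Within the 7 haploid libraries alone, both had r = 0.826. miR-199a-3p was closest to miR-132-3p (0.920) and miR-466i-5p (0.909), and miR-199a-5p to miR-193b-3p (0.947) and miR-127-3p (0.921). The closest to miR-143-3p were miR-98-5p (0.811) and miR-3074-2-3p (0.777), and to miR-145a-5p miR-3535 (0.959) and miR-93-5p (0.95). Between the 5 miRNAs themselves, r was 0.818 for miR-199a-3p with miR-214-3p, 0.752 for both arms of miR-199a, 0.0537 for miR-143-3p with miR-145a-5p, and -0.802 for miR-145a-5p with miR-214-3p. These r are descriptions over libraries of 4 lines that stand apart, and share library size and scaling.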

How the data were processed

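Small RNA libraries of 12 mouse samples were prepared by adapter ligation, PCR and size selection, and read single-end, per the labels' protocols. The authors deposited raw counts of reads per miRNA, without normalisation. Bowtie 0.12.9 and DESeq2 are named per the submitters' processing notes; the sources used here give no genome build, miRBase release, strand setting or treatment of reads with several matches. PCR reads without molecular identifiers are not independent molecules.

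Counts were analysed with edgeR 4.0.16 in R 4.3.3 (filterByExpr with a minimum count of 10 and total of 15, TMM, quasi-likelihood F-test on group means, Benjamini-Hochberg threshold 0.05). The fit of the 9 ESC libraries served the comparisons among ESC, and that of all 12 libraries the comparisons with RS. Haploid lines weighed equally. Printed ratios are of raw counts, while their log2 differences and tests used count + 0.5. The exact two-sided permutation tests went through all arrangements of the libraries and doubled the smaller tail (numpy 2.4.6). Clopper-Pearson intervals came from SciPy 1.17.1. Replicate pairs differed beyond counting noise (chi-square per degree of freedom 56.9 to 1220). On simulated data, the ESC fit recovered 98.1% of changes of 2 on the log2 scale and 42.7% of changes of 1 (757 features), and the RS fit 63.7% and 31.6% (806 features). The simulation gave every feature the same dispersion and, apart from the planted changes, every group the same composition. These rates therefore do not give the power of these data, where replicates and composition differed more. Alternatives were other scalings and filters, DESeq2 1.42.0, a GC correction, a replicate block, sums per line and leaving out each library. Named were the 5 miRNAs, the other arms, the 2 miRNAs most like each over ESC, and the 2 of the fibroblast list that differed most. The miRNAs and lists were chosen with earlier results of these data known.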

Additional observations from a re-analysis of the deposited data

How the results depend on the processing

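miR-214-3p kept its direction and its call in the haploid lines against R1 and in RS against the haploid lines under every alternative run. Depth limits RS, where it had 25 counts in 3 libraries. Where a result changed, the cause was not tested. The median log2 of all features against R1 in the haploid lines was 0.329, and 0.084 with RLE, 0.642 with upper-quartile scaling and 0.94 with all 12 libraries; for RS against the haploid lines it was -2.79, and -1.29 with total-count scaling. GC content was known for 80.4% of 757 features and 3 of the 5 miRNAs, so that check is void for the 5 together. Deviations from the group mean were correlated between ESC libraries of different groups. The r was -0.12 to 0.10 for the same replicate number and -0.162 to 0.162 for other numbers. RS was left out, so whether replicate numbers pair samples was not settled.

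Haploid lines against R1: miR-143-3p was 0.024 with upper-quartile scaling, 0.10 with a mean CPM of at least 10 and 0.53 with all 12 libraries. The count of members higher was 1 with total-count scaling and with sums per line, and 1 to 2 without single libraries. The count lower was 0 with all 12 libraries, and 1 to 2 without single libraries. With all 12 libraries 66% of calls were higher, instead of 50%.

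A129-2 against R1: miR-143-3p was 0.17 with upper-quartile scaling, 0.14 with total-count scaling, 0.31 with a mean CPM of at least 10, 0.67 with all 12 libraries, and -1.04 to 0.36 without single libraries. The count of members lower was 0 with upper-quartile and total-count scaling, a mean CPM of at least 10 and all 12 libraries, and 0 to 1 without single libraries; the count higher was 1 to 3 there. With the GC correction 252 features were called.

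A129-6 against R1: miR-143-3p was 0.29 with all 12 libraries. The count of members higher was 1 with RLE and total-count scaling, and lower 0 with a mean CPM of at least 10 and all 12 libraries; without single libraries they were 1 to 3 and 0 to 2. With the GC correction 330 features were called. With a replicate block miR-199a-5p was called (0.75, adjusted p = 0.0367).

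A129-17 against R1: miR-143-3p was 0.15 with upper-quartile scaling, 0.17 with a mean CPM of at least 10 and 0.64 with all 12 libraries. miR-199a-5p was 0.17, 0.17 and 0.66 there. The count higher was 2 with upper-quartile scaling and all 12 libraries, and lower 0 with the latter. With the GC correction 308 features were called.

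Between the haploid lines, 0 features passed with total-count scaling, 82 with no filter, 4 with a mean CPM of at least 10, 85 with DESeq2, 72 with a replicate block, 3 with the GC correction, 2 with all 12 libraries and 0 to 80 without single libraries; members passing were 0 to 1 there.

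RS against the haploid lines: miR-199a-5p was -0.048 with no filter and -0.59 to 0.27 without single libraries, miR-199a-3p -0.66 with the GC correction and -0.041 to 0.79 without single libraries, and miR-143-3p -0.49 to 0.49 there. The count higher was 2 with RLE scaling, a mean CPM of at least 10 and DESeq2, 4 with upper-quartile and total-count scaling, and 0 to 2 without single libraries. With the GC correction 346 features were called.

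RS against R1: with no filter, miR-143-3p was -0.32 and miR-214-3p -0.080. Without single libraries they were -0.28 to 0.78 and -0.079 to 0.92. The count higher was 1 with RLE scaling, with TMM without the miR-290 cluster and with no filter, 5 with upper-quartile scaling, and 0 to 2 without single libraries. The log2 ratio of miR-143-3p to miR-199a-5p, RS against ESC, was -0.0336, and -0.188 to 0.142 without single libraries.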

Other observations

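The striated muscle miRNAs, which mark another mesodermal tissue, separated the groups as miR-214-3p did between haploid lines and R1. miR-1a-3p stood at 111 to 228 CPM in the haploid libraries, at 17.2 and 18.0 in R1 and at 2335, 509 and 2400 in RS. It was higher in the haploid lines than in R1 by 3.49 (SE 0.42, adjusted p = 2.52e-06 by edgeR). miR-133a-3p (4.41, SE 0.63, adjusted p = 1.55e-05) and miR-206-3p (4.39, SE 0.54, adjusted p = 3.50e-06) were higher too, so that 3 of 3 on the list were called, where 35.3% of features were. Both were near the floor in R1, miR-133a-3p at 0.655 and 0.763 CPM and miR-206-3p at 0.655 and 1.64. The haploid libraries had 9.16 to 18.0 CPM of miR-133a-3p and 13.1 to 46.6 of miR-206-3p. Unlike miR-214-3p, miR-1a-3p was also higher in RS than in the haploid lines (1.64, SE 0.39, adjusted p = 0.000772), and RS libraries 1 and 3 had about the same level of it. In that edgeR comparison miR-133a-3p was called higher too (1.33, SE 0.50, adjusted p = 0.0232). miR-206-3p had the other direction and was not called (-1.12, SE 0.51, adjusted p = 0.0592). So 2 of 3 on the list were called higher in RS, beside 20.8% of features.

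miR-21a-5p, an abundant fibroblast miRNA, was lowest in the haploid lines, where miR-214-3p was highest, with 3721 to 6923 CPM in the haploid libraries, 54830 and 53610 in R1 and 48130 to 126800 in RS. It was lower in the haploid lines than in R1, at -3.28 (SE 0.19, adjusted p = 1.13e-09), and higher in RS than in the haploid lines by 2.44 (SE 0.40, adjusted p = 9.88e-06). These miRNAs were chosen for mention after their values were seen.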
